A study of Rattus norvegicus with 6 samples.

Results

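The miR-29 family was examined in the heart of rats with and without chronic colitis. Its members were taken as every probe on the array for rno-miR-29a, rno-miR-29b or rno-miR-29c, whichever arm of the hairpin it detects, and 7 of the 761 rat miRNA probes met this rule. Of these, 3 detect the main arms rno-miR-29a-3p, rno-miR-29b-3p and rno-miR-29c-3p (rno for rat, left out from here on), and 4 detect the passenger arms miR-29a-5p, miR-29b-1-5p, miR-29b-5p and miR-29c-5p. Total RNA came from hearts of adult Sprague Dawley rats, which per the study's methods were male, and each heart was hybridized to 1 array. The DSS group (animals 13, 14 and 16, n = 3) had drunk 3% dextran sodium sulfate, which injures the colonic lining, for 5 days and then plain water for 9 days, in 4 such cycles within 8 weeks. The control group (animals 9, 10 and 11, n = 3) carried the treatment label control. DSS colitis in rodents models some features of inflammatory bowel disease, and whole hearts mix cardiomyocytes, fibroblasts, vessels and blood, so that fewer cells of a type and less of the RNA per cell cannot be told apart in these values.

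miRNAs are short RNAs that pair through their seed, the bases next to the 5′ end, with messenger RNAs and lower their stability or translation. The miR-29 family is known for targeting messenger RNAs of collagens, elastin, fibrillin and other matrix proteins, and in the heart it is expressed more in fibroblasts than in cardiomyocytes. Loss of miR-29 after cardiac injury is known to go with higher collagen expression, hence its description as antifibrotic. In cardiomyocytes, however, miR-29 has also been linked to hypertrophic growth. A hairpin precursor is cut into 2 arms, of which 1 is usually loaded into Argonaute and kept while the other, the passenger, is mostly degraded. No collagen, other target or tissue stain was measured on these arrays.

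The main arms are shown because they share a seed and are close to each other in sequence, which bears on what each probe can detect. Sequences are from RefSeq (GRCr8), 5′ to 3′, with bases 2 to 8, the seed, in capitals.
miR-29a-3p: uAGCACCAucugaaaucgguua
miR-29b-3p: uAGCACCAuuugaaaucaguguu
miR-29c-3p: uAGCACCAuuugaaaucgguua
The seed AGCACCA was carried by these 3 miRNAs and by no other rat miRNA on the array. miR-29a-3p and miR-29c-3p differed by 1 base, C10U, counted from the 5′ end with the base of miR-29a-3p first. miR-29b-3p lay at an edit distance of 3 from miR-29c-3p and 4 from miR-29a-3p, and both differences included G18A. The nearest miRNA outside the family was at an edit distance of 7 from each main arm. How far the 3 probes tell these sequences apart was not tested, and values given for one member are uncertain to that extent.

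The passenger arms are shown because, unlike the main arms, each has a seed of its own on this array, and no other probe shares it.
miR-29a-5p: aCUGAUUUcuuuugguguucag
miR-29b-1-5p: uUUCAUAUggugguuuagauuu
miR-29b-5p: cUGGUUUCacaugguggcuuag
miR-29c-5p: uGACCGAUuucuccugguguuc
The arms come from 4 hairpins at a pair of loci. Mir29a (chr4:60617955-60618042, GRCr8) and Mir29b1 (chr4:60618334-60618414) lie 291 bases apart on the minus strand. Mir29b2 (chr13:109098831-109098911) and Mir29c (chr13:109099359-109099446) lie 447 bases apart on the plus strand, within the bounds of the long noncoding RNA gene LOC102550527. Mature miR-29b-3p is identical from Mir29b1 and Mir29b2, so its probe sums both loci, whereas miR-29b-1-5p comes from Mir29b1 and miR-29b-5p from Mir29b2. All 7 arms matched an entry in the RefSeq table.

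The arrays read 1 color. A probe's value is the log2 of spot brightness after background correction and cyclic LOWESS, averaged over 4 spots, and detection on an array required 2 or more of these spots to exceed the background by over 3 SD, measured on empty spots, with a pixel CV below 0.5. The background lay between 35.4 and 95.4 and the number of miRNAs detected between 223 and 365 per array. On DSS replicate 14, 32.1% of the empty spots lay over the detection limit, and on control replicate 10, 23.4%, so that detection of dim arms is weakly founded there. Testing was restricted to the 282 miRNAs with detection on 3 or more arrays, 6 miR-29 arms among them. Precision is limited throughout by having 3 arrays per group.

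All 3 main arms were lower in DSS hearts than in control hearts. miR-29c-3p fell 6.70-fold, miR-29b-3p 4.10-fold and miR-29a-3p 2.39-fold, and each passed the test (limma with Benjamini-Hochberg adjustment over the 282 miRNAs, threshold 0.05). Of the 3 tested passenger arms, miR-29a-5p and miR-29c-5p were also called lower and miR-29b-5p was not called. A call of lower was common on these arrays, with 80 of 282 miRNAs (28.4%) called lower and 59 (20.9%) called higher, against 5 of the 6 tested miR-29 arms called lower and 0 called higher. The count over arms is a description only, since miR-29a-5p and miR-29c-5p were detected mostly in control hearts, where they read higher, and passed the detection filter through them. With detection required on all 6 arrays, miR-29a-3p and miR-29c-3p remained, both called lower, as were 47 of the 177 miRNAs then tested.

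For miR-29c-3p, the normalized log2 intensity was 13.22, 10.97 and 12.13 in control replicates 9, 10 and 11 and 10.41, 8.57 and 9.11 in DSS replicates 13, 14 and 16. Every DSS heart lay below every control heart, with control replicate 10 and DSS replicate 13 the closest pair. The means were 12.11 ± 1.13 (SD, n = 3) and 9.36 ± 0.95 (SD, n = 3), a log2 fold change of -2.74 (standard error 0.67, 95% interval -4.35 to -1.14, limma adjusted p = 0.0197). This fold change ranked 1 from the lowest among the 282 miRNAs tested, but miR-450b-5p (-2.71) and miR-450a-5p (-2.70) lay within its standard error.

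For miR-29b-3p, the control hearts read 10.87, 8.57 and 10.01 on the same log2 scale and the DSS hearts 8.67, 7.01 and 7.66. The groups overlapped, since control replicate 10 read slightly below DSS replicate 13, and on DSS replicate 14 the miRNA was not detected. The means were 9.82 ± 1.16 (SD, n = 3) and 7.78 ± 0.84 (SD, n = 3), a log2 fold change of -2.04 (standard error 0.65, 95% interval -3.60 to -0.48, limma adjusted p = 0.0393), which ranked 10 from the lowest.

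For miR-29a-3p, the log2 intensity was 14.15, 13.12 and 13.45 in the control hearts and 12.68, 11.96 and 12.31 in the DSS hearts. The groups did not overlap. The means were 13.57 ± 0.52 (SD, n = 3) and 12.32 ± 0.36 (SD, n = 3), a log2 fold change of -1.26 (standard error 0.32, 95% interval -2.02 to -0.49, limma adjusted p = 0.0213), which ranked 39 from the lowest. After normalization, groups that did not overlap, with DSS lower, were found for 98 of the 282 miRNAs (34.8%) and for 4 of the 6 tested miR-29 arms. Among these 4 were miR-29a-5p and miR-29c-5p, which passed the detection filter mostly through control hearts, so this count is a description only.

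**Figure D1:**
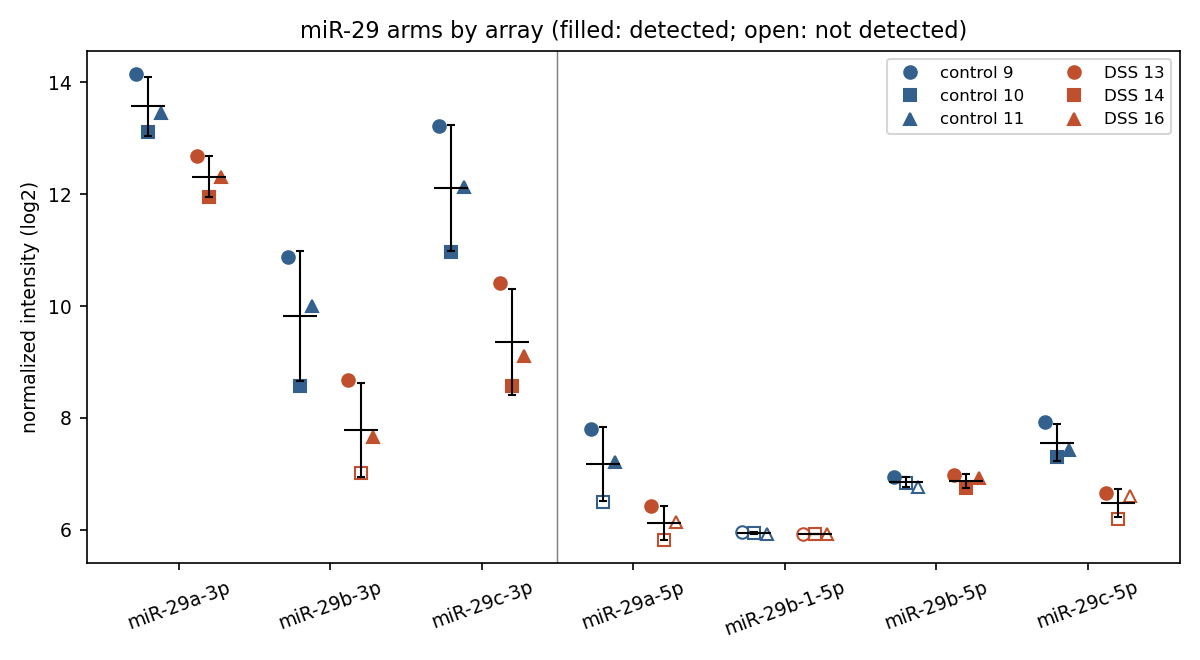
Normalized log2 intensity (vertical axis) of the 7 miR-29 arms on each array, with 3 control hearts in blue and 3 DSS hearts in red, filled where detected, and the group mean ± SD as bars. All DSS points of miR-29a-3p and miR-29c-3p lie below the control points, miR-29b-3p overlaps at control replicate 10 and DSS replicate 13, and miR-29b-5p reads between 6.74 and 6.98 on all 6 arrays.

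The hearts kept nearly the same order for all main arms. From the highest to the lowest, miR-29a-3p and miR-29c-3p both ran control 9, control 11, control 10, DSS 13, DSS 16 and DSS 14, and for miR-29b-3p control 10 and DSS 13 changed places. Such likeness was not particular to the family. Outside it, miR-872-3p and miR-27a-3p had a Pearson's r of 0.996 and 0.992 with the mean of the centered main arms. The 4 spots of a main arm differed little on an array, with an SD between 0.05 and 0.36 on the log2 scale, against an SD between hearts of one group of 0.36 to 1.16. Before normalization, the brightness of miR-29c-3p above background was 8942, 2014 and 5709 in the control hearts and 2119, 195 and 407 in the DSS hearts, so that control replicate 10 then read slightly below DSS replicate 13. For miR-29a-3p it was 18488, 11532 and 15390 in the control hearts and 10043, 2584 and 4014 in the DSS hearts, with no overlap.

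In the table of the authors' processed intensities, on a linear scale, miR-29c-3p read 10426, 2357 and 4780 in the control hearts and 1351, 204 and 512 in the DSS hearts. miR-29a-3p read 15548, 10885 and 12610 against 8363, 3667 and 5244. miR-29b-3p read 2211, 346 and 1090 against 369, 31 and 118. In these values too, the DSS hearts lay below the control hearts for miR-29a-3p and miR-29c-3p and overlapped them at the same pair of hearts for miR-29b-3p.

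Because the members share a seed, whether they fell by unequal amounts was examined within each array. The log2 intensity of miR-29c-3p minus that of miR-29a-3p was -0.93, -2.15 and -1.33 in the control hearts and -2.27, -3.40 and -3.20 in the DSS hearts. These values did not overlap, and their means differed by -1.49. By a 2-sided exact permutation test, p was 0.1, the smallest that 3 arrays against 3 can give, and 0.15 adjusted over the 3 pairs of main arms. For miR-29c-3p minus miR-29b-3p the difference was -0.71 (2.29 ± 0.15 in control and 1.58 ± 0.15 in DSS hearts, SD, n = 3, no overlap, exact p = 0.1, adjusted 0.15). For miR-29b-3p minus miR-29a-3p it was -0.78, with overlapping groups (exact p = 0.2, adjusted 0.2). No pair therefore passed a threshold of 0.05, which this design cannot reach. With scaling by 1 factor per array, the difference of miR-29b-3p and miR-29a-3p shrank to -0.12 and that of miR-29c-3p and miR-29b-3p grew to -1.11.

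**Figure D2:**
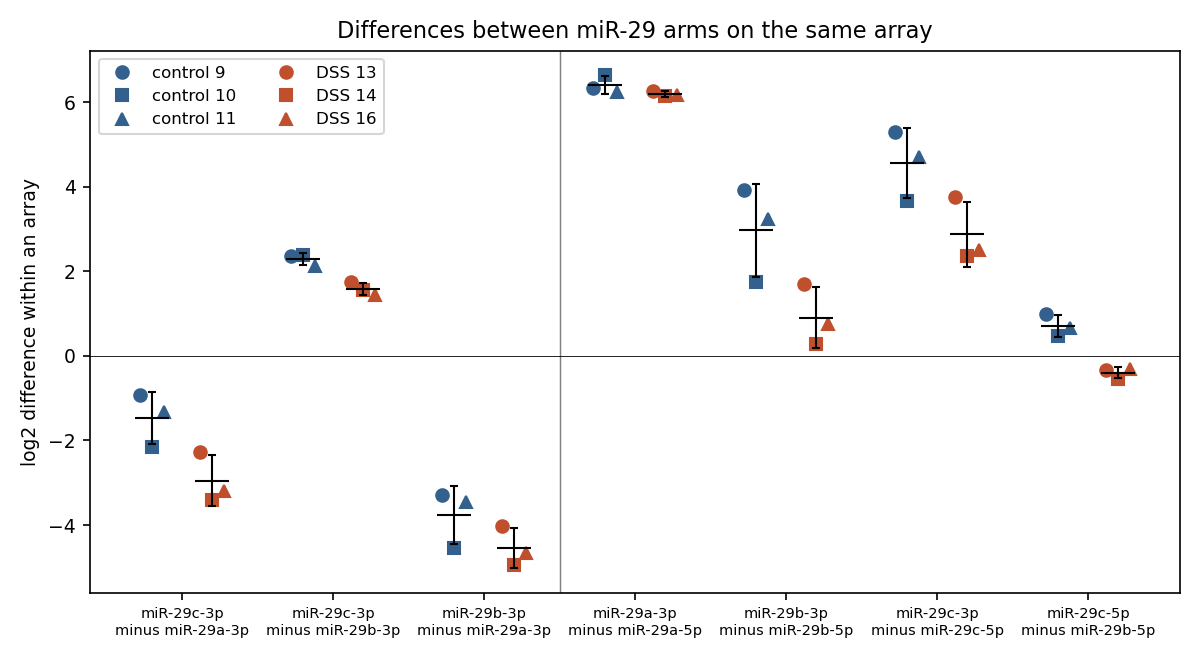
Log2 intensity of one miR-29 arm minus another on the same array (vertical axis), for 3 control hearts in blue and 3 DSS hearts in red, with the group mean ± SD as bars. The DSS hearts lie below all control hearts for miR-29c-3p minus miR-29a-3p (-1.49), miR-29c-3p minus miR-29b-3p (-0.71), miR-29b-3p minus miR-29b-5p (-2.07) and miR-29c-5p minus miR-29b-5p (-1.10), and overlap them elsewhere.

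The passenger arms were dim, and their probes read near the detection limit. miR-29c-5p read 7.93, 7.31 and 7.42 in the control hearts, where it was detected in each, and 6.65, 6.19 and 6.60 in the DSS hearts, where it was detected in replicate 13 alone. The groups did not overlap, and the log2 fold change was -1.07 (standard error 0.24, 95% interval -1.64 to -0.50, limma adjusted p = 0.0170). miR-29c-5p passed the detection filter mostly through control hearts, where it read higher, so its p and the lack of overlap are a description only. It was at -0.09 with 5S rRNA scaling and 0.44 with spike-in scaling, called in neither. miR-29a-5p read 7.81, 6.49 and 7.21 against 6.42, 5.82 and 6.14, detected in control replicates 9 and 11 and DSS replicate 13. Its log2 fold change was -1.04 (standard error 0.36, 95% interval -1.90 to -0.19, limma adjusted p = 0.0483), and control replicate 10 lay only just above DSS replicate 13. Before normalization, control replicate 10 read 20.8 above background and DSS replicate 13 read 25.4. In the authors' processed values they read 13 and 25, so the groups overlapped in both. This arm too passed the detection filter mostly through control hearts, so its p is a description only.

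miR-29b-5p did not pass the test. It read 6.95, 6.83 and 6.77 in the control hearts and 6.98, 6.74 and 6.92 in the DSS hearts, and was detected in control replicate 9 and in all DSS hearts. The groups overlapped, and the log2 fold change was 0.03 (standard error 0.17, 95% interval -0.37 to 0.43, limma adjusted p = 0.872). miR-29b-1-5p was detected on 0 of 6 arrays and read 5.92 to 5.96, so that it was not tested and no fold is given. In the authors' processed table it is listed at 0 for every heart.

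Main arms were set against the passenger arms of the same stem within each array. For miR-29b, the 3p arm minus the Mir29b2 passenger miR-29b-5p was 3.91, 1.75 and 3.24 in the control hearts and 1.69, 0.27 and 0.75 in the DSS hearts, a difference of -2.07 without overlap (exact p = 0.1, adjusted 0.2 over the 3 stems). For miR-29c, 3p minus 5p was 5.29, 3.66 and 4.71 against 3.76, 2.37 and 2.5, a difference of -1.67 with control replicate 10 just below DSS replicate 13 (exact p = 0.2, adjusted 0.2). For miR-29a it was 6.33, 6.63 and 6.24 against 6.26, 6.14 and 6.17, a difference of -0.21 with overlap (exact p = 0.2, adjusted 0.2), and its sign changed with the background correction. Averaged over the 3 stems, main minus passenger averaged 4.64 ± 0.59 in the controls and 3.32 ± 0.51 in the DSS group (SD, n = 3 each), a difference of -1.32 (exact p = 0.1). miR-29a-5p and miR-29c-5p were each detected in 1 DSS heart and miR-29b-5p in 1 control heart, so that several of these values were taken against a probe near the background. An arm near the background has little room to fall, so these differences and their exact p are a description only. With plain background subtraction the mean difference was -0.8 and that of miR-29a was 2.04. With the authors' processed values at pseudocount 1 the mean difference was -0.66. The part of the background in the differences was not tested.

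miR-29b-5p and miR-29c-5p come from neighboring hairpins of the chromosome 13 locus, and their difference was examined after their values were seen. miR-29c-5p minus miR-29b-5p was 0.98, 0.48 and 0.66 in the control hearts and -0.33, -0.55 and -0.31 in the DSS hearts. The groups did not overlap and differed by -1.10, which is given as a description with no test, since the contrast was chosen for its values and each arm was undetected in 2 hearts of the group where it read lower before normalization. The difference lay between -2.46 and -0.97 over the alternatives, with the largest values from plain background subtraction (-2.37) and the authors' processed values. Above background and before normalization, miR-29b-5p read 23.7, 35.9 and 35.0 in the control hearts and 75.9, 69.7 and 60.3 in the DSS hearts, whereas miR-29c-5p read 92.8, 71.8 and 91.7 against 57.0, 27.1 and 32.

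miRNAs read from the opposite strand of the same hairpins are also on the array. miR-3556a lies opposite miR-29a-3p, miR-3556b opposite miR-29c-3p and miR-3587 opposite miR-29b-3p in Mir29b1, and each is the reverse complement of part of that main arm. All 3 were detected on 0 of 6 arrays, with log2 intensities between 6.09 and 6.32.

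**Figure D3:**
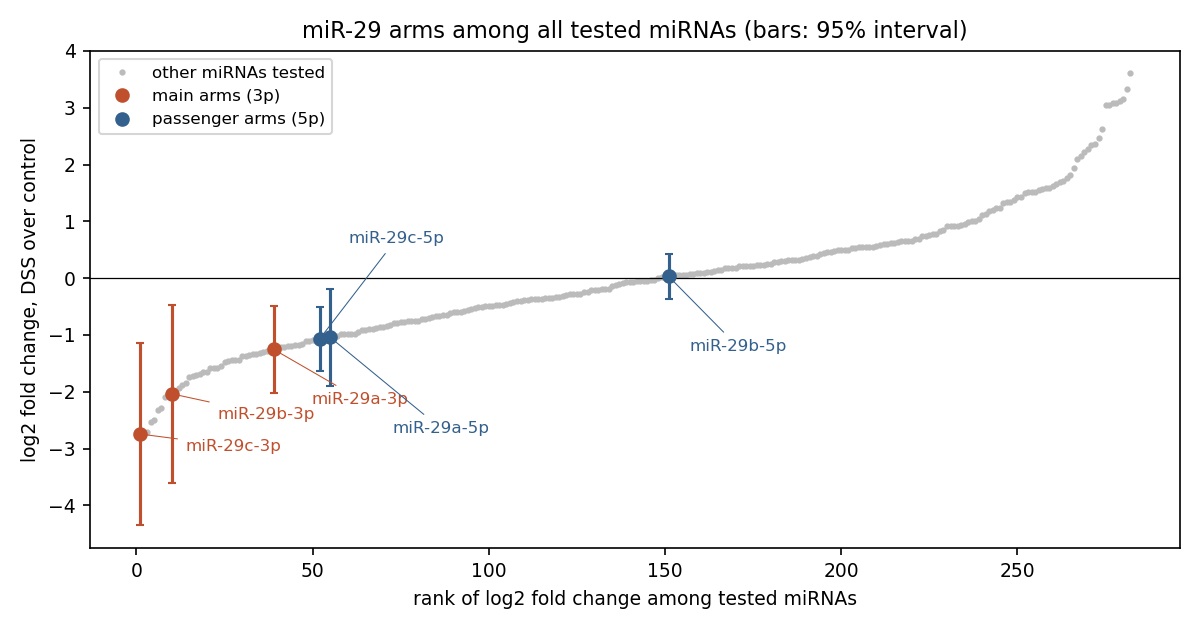
Log2 fold change, DSS over control (vertical axis), of the 282 tested miRNAs ordered by rank (horizontal axis), with main arms of miR-29 in red, passenger arms in blue and 95% intervals as bars. miR-29c-3p holds rank 1 at -2.74, miR-29b-3p rank 10, miR-29a-3p rank 39, and miR-29b-5p lies near 0 at rank 151.

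The size of the fall depended on how the arrays were scaled. The spike-in probes (11 control probes, taken here to detect RNA added to each sample) had a mean log2 brightness of 10.83 in control and 9.88 in DSS hearts before normalization, a change of -0.95. The 6 probes for 5S rRNA changed by -0.42, from 13.41 to 12.99. The 282 tested miRNAs had a median change of 0.36 without normalization and -0.06 after cyclic LOWESS. Scaled to the spike-in probes, the median change of the 282 was 1.31, and 1 of the 3 main arms was called lower, miR-29c-3p at -1.92 (limma adjusted p = 0.00818), where 10 of 282 miRNAs (3.55%) were called lower. miR-29a-3p was then at -0.69 (adjusted p = 0.116, limma) and miR-29b-3p at -0.81 (adjusted p = 0.201, limma). Scaled to 5S rRNA, miR-29a-3p at -1.22 and miR-29c-3p at -2.45 were called lower and miR-29b-3p at -1.34 was not (limma adjusted p = 0.0487, 0.0228 and 0.139), where 14 of 282 (4.96%) were called lower.

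Relative to the median of the tested miRNAs, the values after cyclic LOWESS were -1.19 for miR-29a-3p, -1.97 for miR-29b-3p and -2.68 for miR-29c-3p. After quantile normalization they were -1.72, -2.21 and -3.15. Scaling by 1 factor per array cannot change values relative to the median, and the 5 such settings, no normalization included, all gave -2.0, -2.12 and -3.23. miR-29c-3p had rank 1 in each of these 3 distinct cases, which share 1 background correction. With plain background subtraction, the dim arm miR-29a-5p fell further than miR-29c-3p (-3.56 against -3.25). It also did so with the authors' processed values at pseudocount 1 (-3.76 against -3.23), so rank 1 was lost in both settings. The direction of passenger arms depended on the scaling. Under spike-in scaling miR-29a-5p was at 0.23 and miR-29c-5p at 0.44, neither called. In that setting miR-29b-5p was called higher at 1.47 (limma adjusted p = 0.00309), as were 168 of the 282 miRNAs. Relative to the median of the tested miRNAs it was at 0.16. It was detected in 1 control heart and 3 DSS hearts, so that it passed the detection filter mostly through the DSS hearts.

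**Figure D4:**
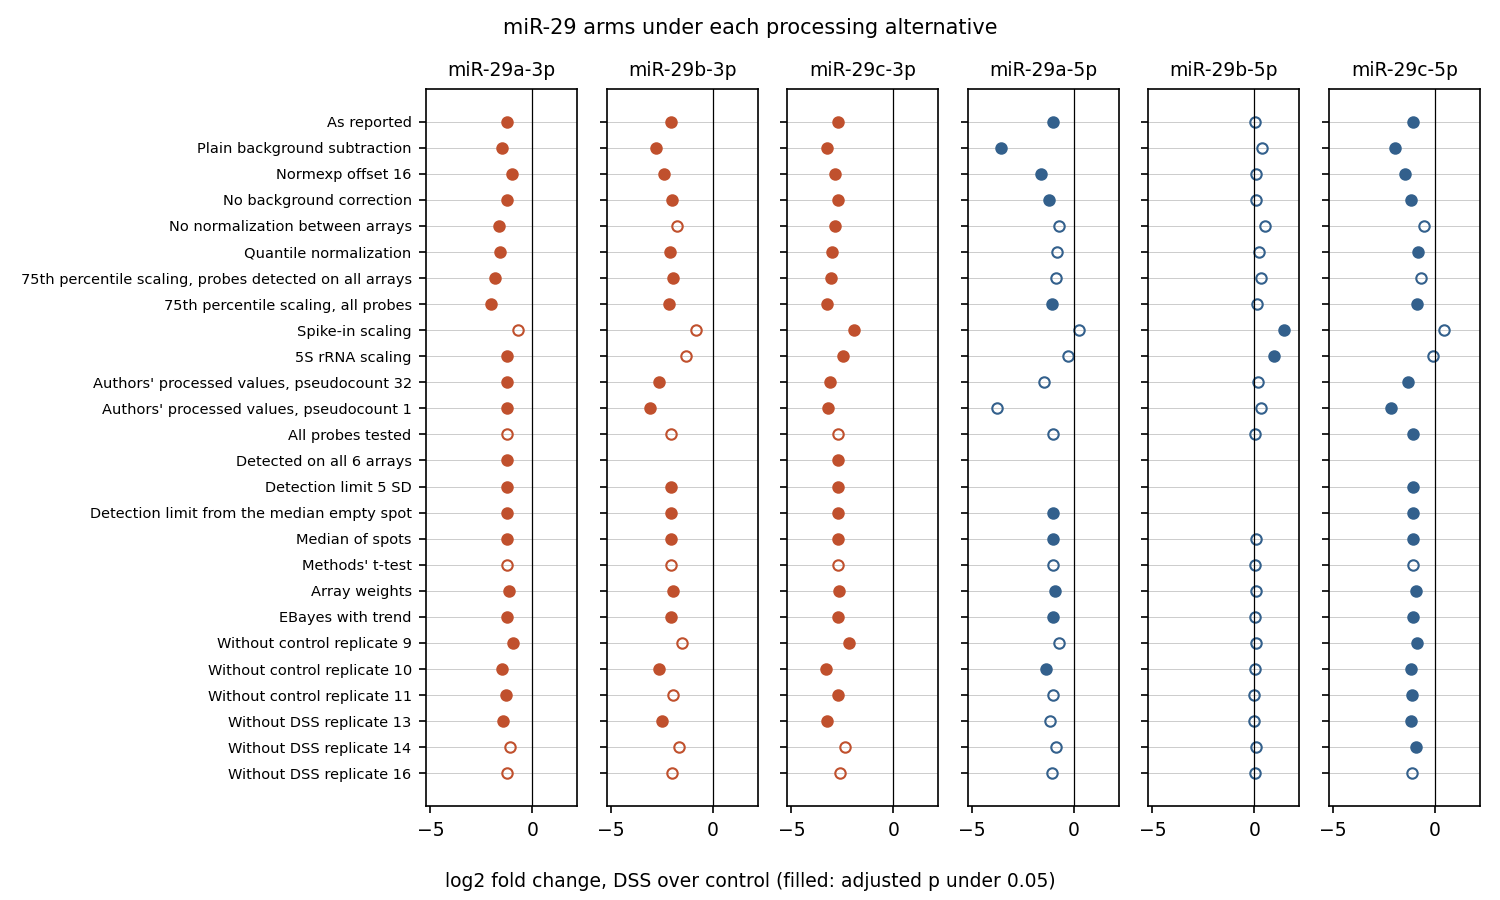
Log2 fold change, DSS over control (horizontal axes), of the 6 tested miR-29 arms as reported and under each of 25 alternatives (rows), filled where the adjusted p was under 0.05. The main arms in red lie below 0 in every row where they were tested, whereas miR-29a-5p and miR-29c-5p lie above 0 with spike-in scaling.

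Calls depended on single hearts, for the main arms and over all miRNAs tested. Without DSS replicate 14, the log2 fold change of miR-29c-3p was -2.35 and that of miR-29a-3p -1.08. In that setting 0 of the 3 main arms were called (limma adjusted p = 0.0589 for miR-29c-3p). Over all 282 miRNAs, 33 were then called lower, against 80 with every heart kept. Without DSS replicate 16 the changes were -2.62 and -1.25, but limma called 0 of all 282 miRNAs, with 129 at an unadjusted p under 0.05. The fall of miR-29b-3p was also not called without control replicate 9 (-1.51) or control replicate 11 (-1.94), where 47 and 54 of 282 miRNAs were called lower.

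Other miRNAs linked to cardiac fibrosis moved in both directions. Of 20 such miRNAs listed, 16 were tested, 6 were called lower and 2 higher, and their median log2 fold change was -0.52 against -0.06 over all miRNAs tested, of which 28.4% were called lower and 20.9% higher. The largest falls were those of miR-101a-3p (-2.04), miR-101b-3p (-1.59) and miR-199a-5p (-1.58), of which miR-101 is known to restrain fibroblast activation through Fos. The 2 called higher were miR-214-3p (1.12) and miR-155-5p (0.65), the latter known for its part in leukocyte activation. miR-155-5p was detected on 3 arrays, the fewest that the filter allowed, and miR-101b-3p and miR-19b-3p, called lower, on 4. Such dim miRNAs may have passed the filter through the group where they read higher, so the counts are a description only. miR-21-5p, which is known to promote fibrosis in fibroblasts, was at 0.78 and not called (limma adjusted p = 0.427). The list thus mixes miRNAs that restrain and that promote fibrosis, so its median and counts give no direction for fibrosis.

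Markers of cell types moved in both directions alongside miR-29, and their counts of calls stand beside 28.4% of all tested miRNAs called lower and 20.9% higher. The summed linear intensity of 6 leukocyte miRNAs lay between 3223 and 6117 in control and between 10765 and 15066 in DSS hearts, with 3 of 4 tested members called higher and 1 lower. The sum followed its bright members miR-150-5p (1.59) and miR-146a-5p (1.42), whereas miR-223-3p, of myeloid cells, was called lower (-1.35), and miR-142-3p (-0.47) and miR-142-5p (-0.48) were each detected on 1 array and not tested. The sum of 2 endothelial miRNAs lay between 12259 and 20280 against 4694 and 10308, with miR-126a-3p called lower (-1.28). The sum of 4 fibroblast miRNAs lay between 4896 and 5007 against 3571 and 4644, with miR-214-3p (1.12) and miR-214-5p (0.55) called higher and miR-199a-5p (-1.58) and miR-199a-3p (-0.75) lower. For 3 smooth muscle miRNAs it lay between 12323 and 19133 against 8415 and 8656, with 2 called lower. The sums of 5 cardiomyocyte miRNAs (25131 to 41212 against 27763 to 79369) and 4 erythroid miRNAs (3078 to 6392 against 4033 to 5841) overlapped. Of the cardiomyocyte markers, miR-208a-3p was detected on 1 array and miR-208b-3p on 0, while miR-1-3p (3.11, called higher), miR-133a-3p (-0.67, not called) and miR-499-5p (-2.09, called lower) were detected on all 6. Of the erythroid markers, miR-451-5p (-2.53) and miR-144-5p (-0.94) were called lower, miR-486 was called higher (2.36), and miR-144-3p was detected on 0 arrays. Among the called markers, miR-155-5p and miR-214-5p (higher) and miR-144-5p (lower) were each detected on 3 arrays, the fewest that the filter allowed. They may have passed it through the group where they read higher, so the counts are a description only. The part of these cell type differences in the fall of miR-29 was not tested.

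The miRNAs whose log2 intensities ran most like the mean of the centered main arms over the 6 arrays were miR-872-3p, miR-27a-3p, miR-30a-5p, miR-499-5p and miR-1839-3p. Pearson's r lay between 0.990 and 0.996, as a description over 6 hearts that share the group difference and the normalization. All 5 were called lower, by -0.73, -1.20, -1.48, -2.09 and -1.11 on the log2 scale in that order, against 28.4% of all miRNAs tested. Since they were chosen for likeness to arms that were lower in DSS hearts, this follows from the choice and is no separate result.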

How the data were processed

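Heart RNA of 3 control and 3 DSS rats was measured on LC Sciences 1-color (Cy5) arrays, and samples were grouped by their labels. The authors deposited scanner intensities (median and SD of the pixels of each spot, linear, background included) and a table of processed intensities, which per the study's methods were background subtracted and LOWESS filtered. How repeated spots were combined is not given in the sources used here. From the scanner intensities, background was corrected with normexp (offset 50), log2 values of 4 spots were averaged, and the 761 miRNA probes were normalized by cyclic LOWESS (span 0.7, 3 iterations) with limma 3.58.1 in R 4.3.3. Figures used Python 3.11.15 and matplotlib 3.10.9. The background used for detection was the median brightness over the dimmest 25% of spots with miRNA probes. DSS was compared with control by limma (lmFit, then eBayes), adjusted over the 282 miRNAs tested, and differences within arrays by 2-sided exact permutation over 20 arrangements. The files name no slide, scan or batch. The procedure was tested on simulated data, with less spread between hearts than the main arms showed and fewer changed miRNAs than were called here. That test therefore does not show how often calls on these arrays are right. The members, the fibrosis and cell type lists, the 5 miRNAs most like the main arms, the 3 largest called changes of the fibrosis list in each direction and the 4 markers named by rule were chosen with earlier results of these data known. miR-21-5p and the other markers were named beyond that rule, after their values were seen.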

Additional observations from a re-analysis of the deposited data

How the results depend on the processing

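Each result was recomputed under up to 25 alternatives. A block for slide or scan was not run, as the files name neither. No paired analysis was possible because control and DSS hearts have no replicate number in common. The direction of the 3 main arms was lower in every alternative that tested them. miR-29a-3p was called in 20 of 25 (-2.01 to -0.69), miR-29b-3p in 15 of 24 (-3.07 to -0.81) and miR-29c-3p in 21 of 25 (-3.31 to -1.92). Of the 3 main arms, 1 was called with spike-in scaling, where 10 of 282 miRNAs were called lower. The count was 0 when all 761 probes were tested, where 42 miRNAs were called lower. It was also 0 with the methods' t-test, which called 0 of 282 after adjustment and 155 before. The fold changes stayed at -1.26, -2.04 and -2.74 in the latter 2 settings, since only the test or the number of miRNAs tested differed. Calls were lost for miR-29a-3p with spike-in scaling (-0.69) and for miR-29b-3p with no normalization (-1.76), spike-in (-0.81) and 5S scaling (-1.34). Leaving out 1 heart gave 0 to 3 main arms called, with 0 to 80 of the 282 miRNAs called lower. The fold changes then had ranges of -1.48 to -0.97 for miR-29a-3p, -2.66 to -1.51 for miR-29b-3p and -3.31 to -2.19 for miR-29c-3p. Calls of the passenger arms are a description only, since each tested one passed the detection filter mostly through 1 group of hearts. Among them, miR-29a-5p was called lower in 9 of 23, miR-29c-5p lower in 18 of 24 and miR-29b-5p higher in 2 of 22. Those 2 were spike-in and 5S scaling, where 168 and 129 of 282 miRNAs were called higher. The signs of miR-29a-5p (0.23) and miR-29c-5p (0.44) reversed with spike-in scaling, and both changes were larger with plain subtraction (-3.56 and -1.98) and with the authors' values at pseudocount 1 (-3.76, not called, and -2.14), settings in which the change of miR-29a-5p was larger than that of every main arm.

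Differences between arms moved as follows, and beyond the construction of each alternative the cause was not tested. The change of miR-29b-3p minus miR-29a-3p was -1.39 with a normexp offset of 16, -0.12 without normalization and with 75th percentile, spike-in or 5S scaling, and -1.42 and -1.83 with the authors' processed values (pseudocounts 32 and 1). That of miR-29c-3p minus miR-29b-3p was -0.47 with plain subtraction, -0.46 with offset 16, -0.93 with quantile normalization, -1.11 with the same single-factor settings, and -0.48 and -0.16 with the authors' values. The mean of main minus passenger arms was -0.66 with the authors' values and pseudocount 1, and miR-29a-3p minus miR-29a-5p ranged from -0.93 to 2.52. miR-29c-3p minus miR-29a-3p kept its sign, from -1.99 to -1.22. miR-29c-5p minus miR-29b-5p ranged from -2.46 to -0.97.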
